A study of Mus musculus with 4 samples.

Results

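The autophagy machinery genes are 39 genes that encode the proteins which build the autophagosome, load cargo into it and regulate this process. They were taken by symbol from the deposited table of 48709 genes, and all 39 had a mean of at least 10 normalized counts over the 4 libraries, so none was lost to the filter on low values. RNA came from the left lung lobe of untreated C57BL/6 mice at postnatal day 1, from 2 mice homozygous for the SL allele of Ryk (RykSL/SL, or mutant) and 2 wild-type mice. Ryk encodes a receptor for WNT ligands. Each library is a separate mouse, and the labels give neither litter nor sex nor the effect of the SL allele on the transcript. At issue is which transcripts of the newborn lung differ by genotype.

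In autophagy, the ULK1 kinase complex starts formation of a membrane, the VPS34 lipid kinase complex marks it with phosphatidylinositol 3-phosphate (PI3P), and ATG9 vesicles and the ATG2 lipid transfer proteins make it grow. Ubiquitin-like conjugation enzymes then attach ATG8 proteins (the LC3 and GABARAP families) to the membrane, where cargo receptors bind them, and the closed autophagosome fuses with lysosomes. In newborn mice autophagy is known to increase in many tissues after the placental supply ends, and pups without Atg5 or Atg7 die soon after birth. Transcript levels do not measure how much cargo is degraded.

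The normalized counts summed to between 18658239 and 19987634 per library, and the autophagy machinery genes together made up 0.301% and 0.320% of these totals in mutant lungs, against 0.253% and 0.259% in wild-type lungs. Ryk stood at 2757 and 2203 normalized counts in mutant lungs, against 2528 and 2525 in wild-type lungs. Mutant replicate 1 stood apart in Xist, the RNA of the inactive X chromosome, with 24836 normalized counts in this lung, 9 in mutant replicate 2, and 7 and 23 in the wild-type lungs. Over all genes tested, the SD of the log2 difference was 0.60 between the mutant lungs and 0.314 between the wild-type lungs, and over the autophagy machinery genes it was 0.347 and 0.088. Between genotypes mutant replicate 2 was the more distant lung, with SDs of 0.757 and 0.744 from the wild-type lungs, against 0.61 and 0.575 for mutant replicate 1 (over the autophagy machinery genes 0.467 and 0.455, against 0.296 and 0.279). None of the 10 cell type marker lists had both mutant sums above both wild-type sums. The lists that stood lower in both mutant lungs included macrophages (11 genes, 19448 and 19263 normalized counts, against 37163 and 27500 in wild-type lungs), cardiac muscle (10 genes, 4472 and 3969, against 7804 and 7876, with Nppa under 10 in every library) and fibroblasts (6 genes, 38361 and 41596, against 56060 and 54190, although 1 of these genes was called higher and none lower). Sums were also lower for lymphoid cells (6 genes, 127 and 88, against 335 and 289, with Cd3e under 10) and skeletal muscle (5 genes, 173 and 131, against 223 and 255, with Myh3 under 10). They were lower for alveolar type 2 cells (7 genes, 282423 and 247600, against 337795 and 307148) and type 1 cells (6 genes, 65856 and 59711, against 68117 and 68823). Gene by gene, both mutant lungs lay below both wild-type lungs in 4 of the 7 type 2 genes and above in 1. For the 6 type 1 genes it was 2 below and 1 above, and for the 3 tested skeletal muscle genes 1 below and 0 above. Sums overlapped for endothelium (6 genes, 30412 and 17586, against 24129 and 26198), neutrophils (8 genes, 6092 and 9393, against 6651 and 6554, with Mpo and Elane under 10) and erythroid cells (9 genes, 681522 and 814369, against 734761 and 854758). The nuclear RNA Malat1, 1 of 5 RNA quality genes, stood at 17857 and 33420 in mutant lungs, against 13241 and 13663 in wild-type lungs, and the sums of the 5 overlapped. Another nuclear RNA, Neat1, stood at 4803 and 12146 in mutant lungs, against 14499 and 11497 in wild-type lungs, with overlap. The part of cell composition, of Malat1 and of sex in the results below was not tested, and in whole lung a smaller number of cells of a type and less RNA per cell cannot be told apart.

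Most autophagy machinery genes stood higher in the mutant lungs by small amounts, and 1 of the 39, the ATG8 family gene Gabarapl1, passed the test. Genes were tested with limma on the scale log2(normalized count + 1), a p-value adjusted by Benjamini-Hochberg over 18436 genes being called under 0.05. The p-values weigh each difference against the spread between individual mice, which limma draws toward the trend over all genes. Over all genes tested, 1.47% passed upward and 0.917% downward, so the share of members called is near the background and is no result about the list. The member log2 fold changes ran from -0.48 to 0.85 with a median of 0.28, where all genes tested had a median of -0.02. Both mutant lungs lay above both wild-type lungs in 24 of the 39 genes, where 25.7% of all genes tested did so. Both lay below in 4, where 26.9% of all genes tested did so. With every library scaled to the same total, a choice made after the data were seen, these counts were 21 and 7 of the 39, against 20.8% and 34.6% of all genes tested. At an unadjusted p under 0.05, 16 of the 39 were higher and 1 was lower, where 10.4% and 9.64% of all genes tested were. The median difference from the wild-type mean on the log2 scale was 0.29 for mutant replicate 1 and 0.39 for mutant replicate 2. Members and role groups were chosen with earlier results of these data known. The counts set against all genes, here and by role below, therefore describe the list and do not test it.

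**Figure D1:**
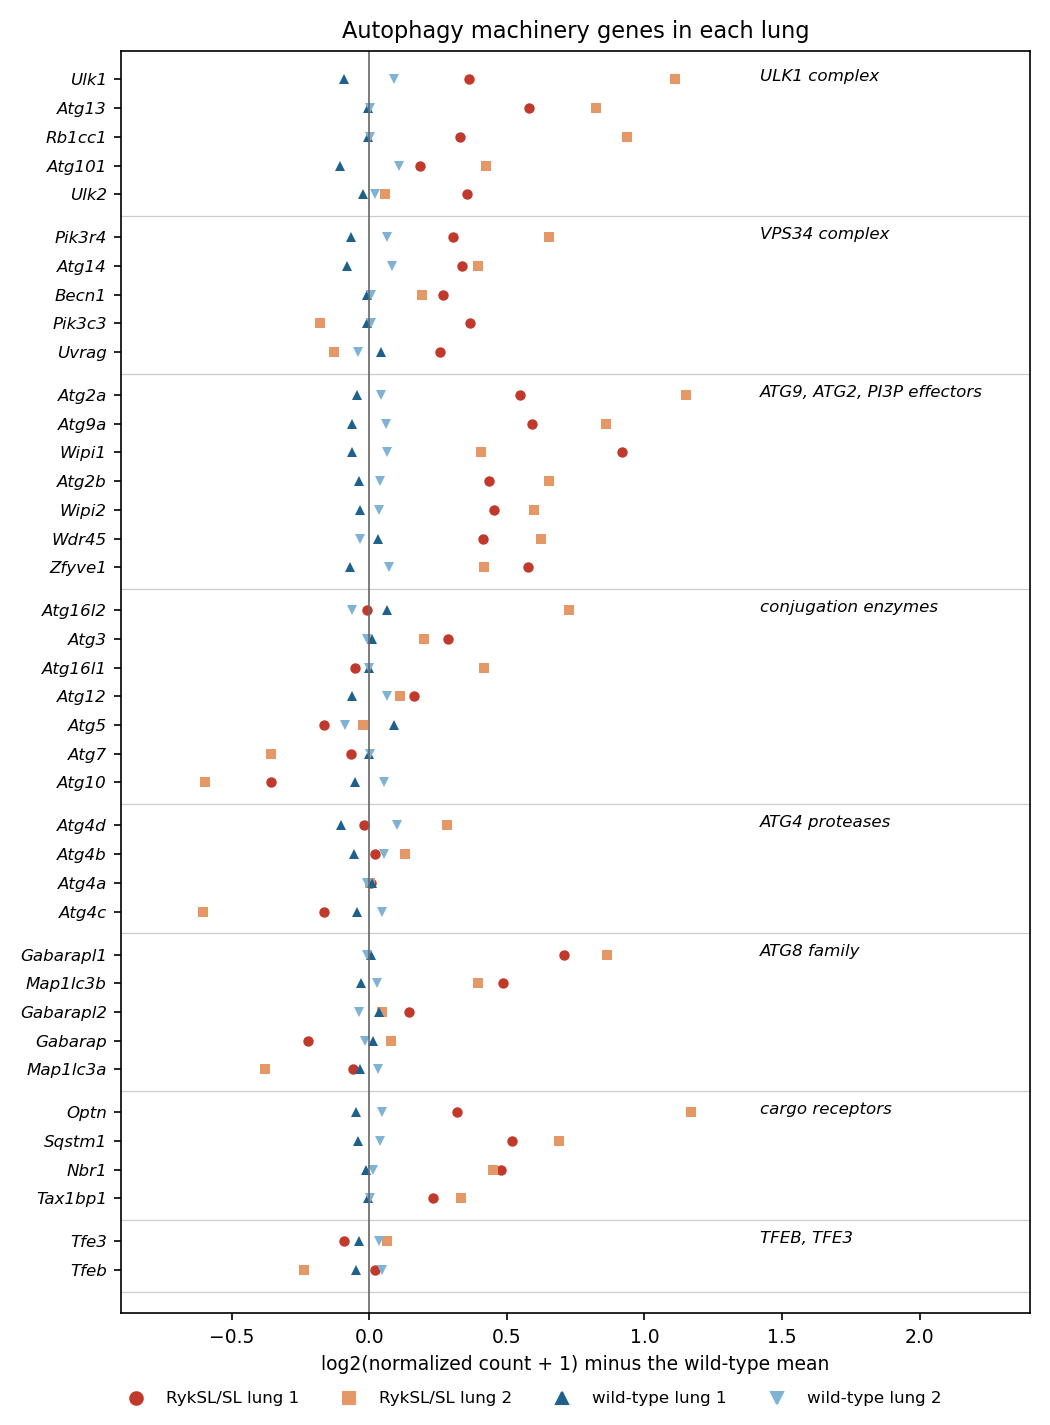
Each row is a gene, grouped by role, and each point is a lung; the horizontal axis is log2(normalized count + 1) minus the mean of the wild-type lungs. The wild-type points stay close to 0, while the mutant points of the ULK1 complex, of the ATG9, ATG2 and PI3P effector group and of the cargo receptors lie to their right, and those of the conjugation enzymes and ATG4 proteases lie on both sides.

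The ULK1 complex genes were higher in both mutant lungs than in either wild-type lung for all 5 members. Over all genes tested this share was 25.7%. It held for 4 of the 5 with equal library totals (20.8% of all genes tested) and for 4 with quantile normalization (25.0%). None of the 5 passed the test, and their median log2 fold change was 0.63. Atg13, the subunit that links the kinase to its scaffold (chromosome 2, positions 91674618 to 91710576, GRCm38), had 1265 and 1497 normalized counts in mutant lungs, against 843 and 847 in wild-type lungs. The groups did not overlap (log2 fold change 0.70, standard error 0.15, adjusted p = 0.0775). Ulk1, the kinase itself, had 1359 and 2287 in mutant lungs, against 993 and 1127 in wild-type lungs (0.74, standard error 0.26, adjusted p = 0.198). Rb1cc1, which encodes the scaffold protein FIP200, had 3273 and 4992 against 2598 and 2615 (0.63, adjusted p = 0.196). For both genes mutant replicate 2 stood well above mutant replicate 1. Atg101, which stabilizes Atg13, had 509 and 601 against 415 and 482 (0.31). Ulk2, the paralog of Ulk1, had 1958 and 1595 against 1508 and 1556 (0.21, adjusted p = 0.506). Per kilobase of the principal transcript, Ulk1 reached 261 and 439 normalized counts in mutant lungs, against 190 and 216 in wild-type lungs, and Ulk2 341 and 278 against 263 and 271. Ulk1 was the higher paralog per length in mutant replicate 2 alone.

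The genes of the VPS34 complexes, which make PI3P, showed smaller differences, with a median log2 fold change of 0.23, and none of the 5 passed. Pik3r4, the regulatory subunit VPS15, had 671 and 855 normalized counts in mutant lungs, against 519 and 569 in wild-type lungs (0.48, standard error 0.17, adjusted p = 0.209). Atg14, which directs the kinase to the forming autophagosome, had 498 and 518 against 372 and 417 (0.37, adjusted p = 0.251). Becn1, encoding Beclin 1, had 1256 and 1193 against 1039 and 1048 (0.23, adjusted p = 0.384), and 36.8% of its 50-base sequences also occur in other genes, mainly on the opposite strand. In these 3 of the 5 genes both mutant lungs lay above both wild-type lungs, where 25.7% of all genes tested did so. The remaining members overlapped. The kinase gene Pik3c3 had 748 and 512 in mutant lungs, against 577 and 583 in wild-type lungs, so the mutant lungs lay on either side. Uvrag, a subunit of the endosomal form of the complex, had 1191 and 913 against 1026 and 969, with 17.5% of its 50-base sequences found elsewhere.

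Genes of the membrane supply and PI3P effector group stood higher in both mutant lungs for all 7 members, each with an unadjusted p under 0.05, and none passed after adjustment. Of all genes tested, 25.7% stood higher in both mutant lungs, and 10.4% were higher at this unadjusted p. The group's log2 fold changes ran from 0.50 to 0.85. Atg9a, the transmembrane lipid scramblase of the vesicles that seed the autophagosome (chromosome 1, positions 75180860 to 75192196), had 508 and 613 normalized counts in mutant lungs, against 323 and 352 in wild-type lungs (0.73, standard error 0.17, adjusted p = 0.0941). Its exons overlap those of Gm29253, a gene on the same strand that stood at 1 and 0 in mutant lungs and at 0 in both wild-type lungs. Atg2a, a lipid transfer protein, had 672 and 1019 against 445 and 473 (0.85, standard error 0.22, adjusted p = 0.120). Its paralog Atg2b had 823 and 957 against 593 and 625 (0.54, adjusted p = 0.134). In each of these 3 genes mutant replicate 2 was the highest lung. Of the WIPI genes, whose products bind PI3P, Wipi2 had 1855 and 2053 against 1322 and 1388 (0.53, adjusted p = 0.120). Wipi1 had 1577 and 1104 against 798 and 871 (0.66, adjusted p = 0.157), and here mutant replicate 1 was the higher mutant lung. Wdr45, an X-linked gene that encodes WIPI4, a partner of ATG2, had 2242 and 2597 against 1725 and 1646 (0.52, adjusted p = 0.136), and the lung with high Xist had the lower of the mutant values. Zfyve1, which encodes the PI3P-binding protein DFCP1 of the autophagosome cradle, had 1085 and 971 against 692 and 764 (0.50, adjusted p = 0.149). All 7 kept both mutant lungs above both wild-type lungs with equal library totals and with quantile normalization. Of all genes tested, 20.8% and 25.0% did so under these settings.

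The conjugation enzymes and the ATG4 proteases, which act on the ATG8 proteins, had smaller differences, in both directions. None of these 11 genes passed, and the median log2 fold changes were 0.14 for the 7 conjugation genes and 0.04 for the 4 proteases. Atg5, part of the complex that sets the site of conjugation, had 660 and 728 normalized counts in mutant lungs, against 787 and 695 in wild-type lungs, which overlapped (-0.09, standard error 0.15). Atg7, the activating enzyme of both conjugation reactions, had 508 and 415 against 531 and 532 (-0.21, standard error 0.16, adjusted p = 0.519). Atg10, the enzyme that joins Atg12 to Atg5, had 161 and 136 against 199 and 214, the most negative log2 fold change of the 39 genes (-0.48, standard error 0.19, adjusted p = 0.237). Both Atg7 and Atg10 had the mutant lungs below the wild-type lungs. Atg3, the enzyme that passes ATG8 proteins to lipid, had 1087 and 1023 against 897 and 885 (0.24, adjusted p = 0.365). The ubiquitin-like protein gene Atg12 had 1094 and 1057 against 935 and 1021 (0.14). Both Atg3 and Atg12 had the mutant lungs above the wild-type lungs. With 2 of the 7 conjugation genes above and 2 below, where 25.7% and 26.9% of all genes tested were, these counts are near the background. Atg16l1, which recruits the conjugation complex to the membrane, had 669 and 928 against 694 and 694, and its paralog Atg16l2 had 259 and 431 against 272 and 249. In both of the ATG16 genes mutant replicate 2 alone stood above the other lungs.

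The ATG4 proteases prime ATG8 proteins and release them from membranes. The X-linked gene Atg4a had 458 and 457 normalized counts in mutant lungs, against 459 and 453 in wild-type lungs, with a log2 fold change of 0.005 and a standard error of 0.14. Of its 50-base sequences, 51.2% also occur in transcripts of other genes, mainly the annotated copy Atg4a-ps, which stood at 109 and 130 against 121 and 120, so its reads cannot be assigned with certainty. Atg4b had 1055 and 1139 against 1002 and 1080 (0.08), Atg4c had 209 and 154 against 227 and 242 (-0.38, standard error 0.21, adjusted p = 0.364), and Atg4d had 337 and 415 against 318 and 366 (0.13). Only Atg4c of these genes had non-overlapping groups, with the mutant lungs lower. Of all genes tested, 25.7% had both mutant lungs above both wild-type lungs and 26.9% had both below.

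**Figure D2:**
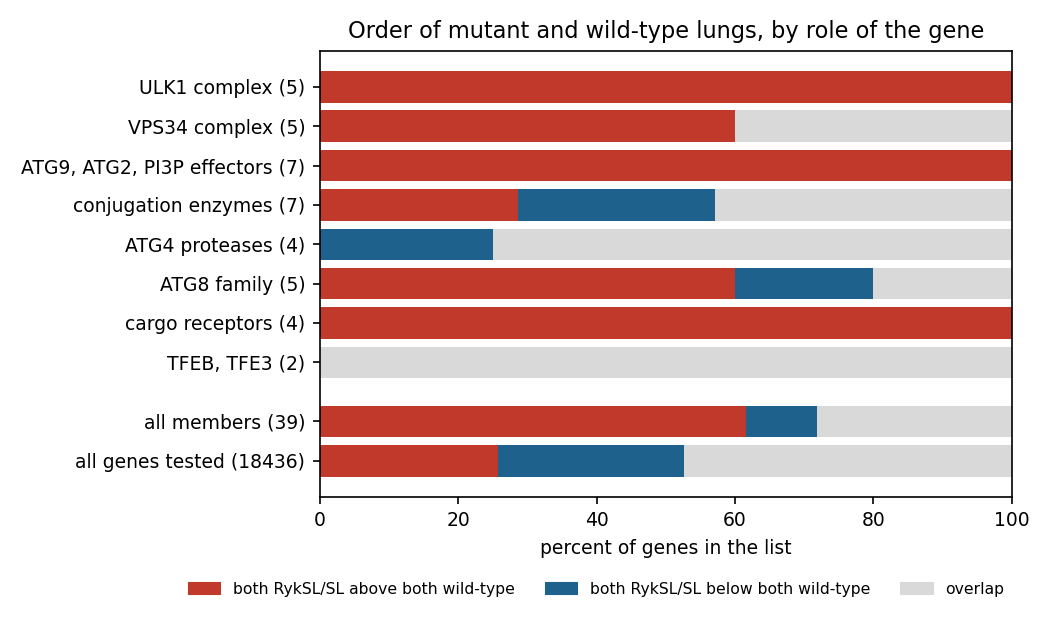
Bars give the percent of genes in each role group, in all 39 members and in all 18436 genes tested in which both RykSL/SL lungs lay above both wild-type lungs, below both, or overlapped with them; the number of genes is in brackets. The ULK1 complex (5 of 5), the ATG9, ATG2 and PI3P effector group (7 of 7) and the cargo receptors (4 of 4) were entirely in the first class, against 25.7% of all genes tested. The role groups were chosen with earlier results of these data known.

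Within the ATG8 family, whose members are attached to the autophagosome membrane and bind cargo receptors, Gabarapl1 and Map1lc3b stood higher in mutant lungs by more than the other members, which differed by less than 0.25 on the log2 scale in either direction. Gabarapl1 (ENSMUSG00000030161, chromosome 6, positions 129533160 to 129542346) had 1969 and 2196 normalized counts in mutant lungs, against 1211 and 1199 in wild-type lungs, or 2083 ± 161 against 1205 ± 8.49 (SD, n = 2 each). It rose by 0.79 on the log2 scale (standard error 0.14, limma, adjusted p = 0.0491), just inside the threshold. Without mutant replicate 1 the adjusted p was 0.0407. The call did not hold with quantile normalization (adjusted p = 0.0706), with equal library totals (0.0633), without the mean-variance trend (0.117), with no filter on low values (0.24), or without mutant replicate 2 (0.0966), wild-type replicate 1 (0.952) or wild-type replicate 2 (0.78). With no filter none of all 31939 genes tested was called, and without the trend 72 genes were, against 440 in the main fit. Map1lc3b, the gene of LC3B, the usual marker protein of autophagosomes, lies on chromosome 8, positions 121590361 to 121598760. It had 5475 and 5133 against 3826 and 3984, without overlap (0.44, standard error 0.14, adjusted p = 0.169). Gabarap had 4407 and 5426 in mutant lungs, against 5189 and 5087 in wild-type lungs, so the mutant lungs lay on either side (-0.07, standard error 0.16). Gabarapl2 had 2014 and 1883 against 1871 and 1778 (0.09, standard error 0.13, but -0.02 with quantile normalization), and Map1lc3a had 957 and 767 against 975 and 1019 (-0.22, standard error 0.16, adjusted p = 0.499). The mutant lungs lay above the wild-type lungs in Gabarapl2 and below them in Map1lc3a, by small margins.

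**Figure D3:**
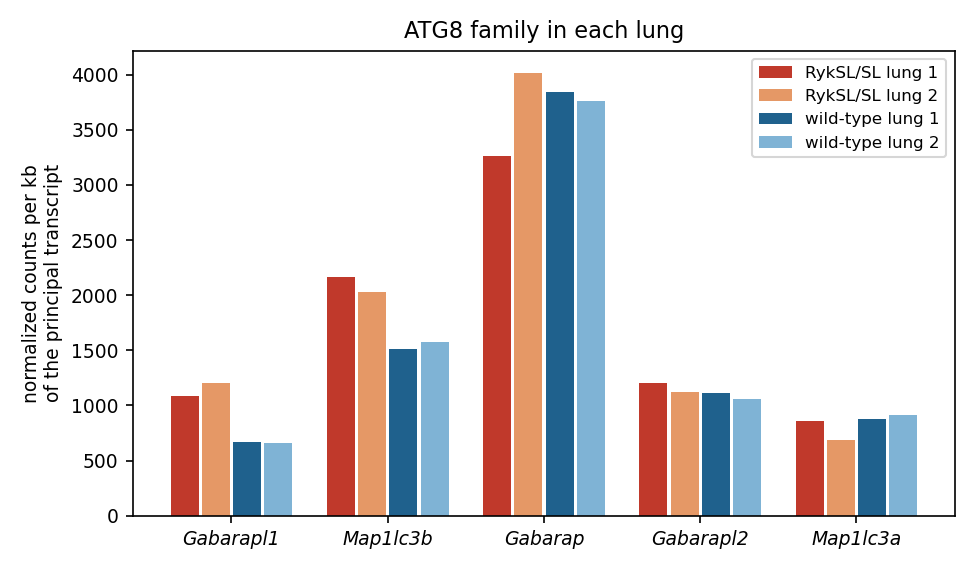
Bars give the normalized counts per kilobase of the longest principal transcript for the 5 ATG8 genes in each lung. Gabarap was highest in every lung, and Gabarapl1 was above 1000 in both RykSL/SL lungs and below 700 in both wild-type lungs.

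Per kilobase of the longest principal transcript, Gabarap was the most abundant ATG8 transcript in every lung, at 3262 and 4016 normalized counts in mutant lungs, against 3841 and 3765 in wild-type lungs. Map1lc3b followed with 2162 and 2027 against 1511 and 1573. Gabarapl1 made up 12.6% and 13.3% of the family's length-scaled sum in mutant lungs, against 8.31% and 8.26% in wild-type lungs, while the share of Gabarap was 38.1% and 44.3% against 48.0% and 47.2%. The ratio of Gabarapl1 to Gabarap normalized counts was 0.447 and 0.405 in mutant lungs, against 0.233 and 0.236 in wild-type lungs. The groups did not overlap, and the exact two-sided permutation test gave p = 0.333, the smallest value that 2 against 2 lungs allow. The place of Map1lc3b in the order depends on the length used: over the union of its exons, which is 5182 bases in place of 2532, its level per kilobase was 1057 and 991 in mutant lungs, against 738 and 769 in wild-type lungs, below Gabarapl2 in all lungs. For Gabarapl1, 23.1% of 50-base sequences occur elsewhere, and its exons overlap by 570 bases with those of the antisense transcript 1700101I11Rik, which stood at 4 and 5 in mutant lungs, against 6 and 8 in wild-type lungs. For Gabarapl2, 12.2% of 50-base sequences occur elsewhere, mostly in pseudogenes such as Gm3724 (599 and 544 against 487 and 481).

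The promoters of the GABARAP genes are shown because Gabarapl1 passed the test and its closest relatives did not. They run from 250 bases before to 50 bases after the RefSeq start (GRCm38.p6), at chr6:129532942-129533241 for Gabarapl1, chr11:69991120-69991419 for Gabarap and chr8:111940453-111940752 for Gabarapl2, all on the plus strand. Capitals mark the first 50 transcribed bases, and the RefSeq start need not be the one used in this tissue. That of Gabarap lies downstream of the deposited gene start at position 69991143 of chromosome 11.
Gabarapl1: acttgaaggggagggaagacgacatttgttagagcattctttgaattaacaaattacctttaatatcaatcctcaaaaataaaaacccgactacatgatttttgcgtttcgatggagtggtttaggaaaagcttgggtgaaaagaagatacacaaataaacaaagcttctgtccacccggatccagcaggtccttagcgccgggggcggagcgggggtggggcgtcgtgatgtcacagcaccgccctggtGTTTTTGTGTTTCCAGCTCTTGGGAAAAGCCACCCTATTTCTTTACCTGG
Gabarap: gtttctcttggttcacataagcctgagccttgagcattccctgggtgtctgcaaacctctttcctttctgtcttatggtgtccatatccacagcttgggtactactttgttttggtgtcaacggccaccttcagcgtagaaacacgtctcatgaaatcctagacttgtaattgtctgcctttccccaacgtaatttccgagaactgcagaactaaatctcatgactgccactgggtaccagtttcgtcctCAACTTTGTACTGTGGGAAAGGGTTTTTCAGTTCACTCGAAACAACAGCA
Gabarapl2: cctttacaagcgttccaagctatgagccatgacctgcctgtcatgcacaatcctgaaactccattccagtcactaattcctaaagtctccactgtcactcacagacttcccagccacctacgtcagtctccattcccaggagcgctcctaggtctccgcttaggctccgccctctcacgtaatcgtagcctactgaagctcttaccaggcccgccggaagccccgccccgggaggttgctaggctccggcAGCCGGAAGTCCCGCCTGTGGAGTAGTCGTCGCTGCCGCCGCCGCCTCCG
The windows held 12 CG dinucleotides in Gabarapl1, 7 in Gabarap and 20 in Gabarapl2, and G or C made up 46.3%, 45.7% and 60.0% of the bases. None of the 3 held the E-box CACGTG, the core of the sites that TFEB and TFE3 bind.

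Promoters of this kind were available for 33 of the 39 genes, 41 promoters in all, and were searched on both strands for motifs of factors known to regulate autophagy genes. The E-box CACGTG was found in 4 of the 41 (9.76%) and in 7.15% of all 32851 promoters in the table. It lay in Atg3, Atg5, Atg7 and Atg14, of which none passed the test. In Atg3 there were 2 such sites, and the nearer to the start formed the longer palindrome TCACGTGA, which occurs in 0.974% of all promoters and includes the shorter motif. The full palindrome of the lysosomal gene network (the CLEAR motif), which also includes it, was in none of the 41 and in 0.326% of all. The windows below show each E-box in capitals with 12 bases on either side, on the strand of the gene, at chr6:114670952-114670981 (Atg7, plus strand), chr10:44268313-44268342 (Atg5, plus), chr14:47568418-47568447 (Atg14, minus), chr16:45158723-45158752 and chr16:45158746-45158775 (Atg3, plus).
Atg7: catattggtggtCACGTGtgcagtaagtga
Atg5: cggagcgcttgcCACGTGgtcttggtgacg
Atg14: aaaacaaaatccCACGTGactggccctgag
Atg3: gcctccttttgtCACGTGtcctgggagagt
Atg3: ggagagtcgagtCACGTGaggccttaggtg
The motif began 132, 14, 1, 94 and 71 bases before the RefSeq start in this order. For Atg7 that start lies inside the gene, well downstream of the deposited gene start at position 114643097 of chromosome 6. The FOXO motif GTAAACA was in none of the 41 promoters (3.65% of all). The glucocorticoid receptor hexamer AGAACA was in 5 (12.2%, against 19% of all), in Atg2b, Atg4a, Atg4d, Atg5 and Optn. The antioxidant response core TGACNNNGC was in 5 (12.2%, against 12.4% of all), in Atg13, Map1lc3b, Tax1bp1, Ulk2 and Zfyve1. These matches are descriptions of the sequence and not of binding.

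Cargo receptor genes stood higher in both mutant lungs for all 4 members, where 25.7% of all genes tested did so, without passing the test. Sqstm1, which encodes p62, the receptor for ubiquitin-marked cargo (chromosome 11, positions 50199366 to 50210827), had 5116 and 5762 normalized counts in mutant lungs, against 3477 and 3675 in wild-type lungs (0.60, standard error 0.15, adjusted p = 0.103). Nbr1, which acts with p62, had 4017 and 3944 against 2859 and 2911 (0.46, standard error 0.13, adjusted p = 0.143), with the mutant lungs close to each other. Optn, the receptor optineurin of damaged mitochondria and bacteria, had 462 and 832 against 358 and 382 (0.74, standard error 0.28, adjusted p = 0.224). Here mutant replicate 2 was the highest lung, at 1.80 times mutant replicate 1, the widest ratio between the mutant lungs among the 39 genes. Tax1bp1, another ubiquitin-binding receptor, had 5482 and 5892 against 4661 and 4685 (0.28, adjusted p = 0.324). Per kilobase of principal transcript, Sqstm1 was the highest receptor, at 2512 and 2829 in mutant lungs, against 1707 and 1804 in wild-type lungs, and Optn the lowest, at 177 and 318 against 137 and 146. The exons of Sqstm1 overlap by 580 bases with a gene on the opposite strand, whose reads cannot be told apart without the strand setting.

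The transcription factors that switch on lysosome and autophagy genes gave values that overlapped between the genotypes. Tfeb had 231 and 193 normalized counts in mutant lungs, against 220 and 235 in wild-type lungs (-0.11, standard error 0.18, adjusted p = 0.787). The X-linked gene Tfe3 had 610 and 680 against 633 and 666 (-0.01, standard error 0.14, adjusted p = 0.975). In Tfeb mutant replicate 2 was the lowest lung, and in Tfe3 mutant replicate 1 was. These factors are controlled largely by where in the cell they reside, which transcript levels do not show.

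The call count changed whichever lung was left out, and rose only without mutant replicate 1. Without it, limma called 12 of the 39 genes higher and none lower (4 lower at an unadjusted p under 0.05), where 6.5% of all genes tested were called higher and 6.43% lower. This fit has 1 mutant lung, which is assumed to vary as the wild-type lungs do. The 12 were Ulk1, Rb1cc1 and Atg13 of the ULK1 complex, Atg2a, Atg2b, Atg9a, Wipi2 and Wdr45 of the membrane group, Sqstm1, Nbr1 and Optn of the receptors, and Gabarapl1, with adjusted p between 0.0407 and 0.0484. These adjusted p-values lie just under the threshold, so which role groups appear among the 12 depends on it. Size of change alone did not set these genes apart. In this fit Atg16l2 of the conjugation genes (log2 fold change 0.73) and Pik3r4 of the VPS34 complexes (0.65) rose by more than Nbr1 (0.45). Atg16l1 (0.419) and Map1lc3b (0.395), also outside the 12, rose by nearly as much as Nbr1. When mutant replicate 2, wild-type replicate 1 or wild-type replicate 2 was left out, no call remained among the 39 or all genes tested. The median log2 fold change of the 39 was then 0.29, 0.25 and 0.29. With a mean of at least 50 in place of 10, the count stayed at 1 higher and 0 lower, where 1.76% and 1.09% of all genes tested were called.

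Genes around the machinery that passed the test included larger changes than any of the 39 members. The kinases TOR, which represses the ULK1 complex, and AMPK, which activates it, with their regulators gave 3 of 32 tested genes higher and none lower, where 1.47% and 0.917% of all genes tested were called. At an unadjusted p under 0.05, 9 of the 32 were higher and 2 lower, where 10.4% and 9.64% of all genes tested were. The median log2 fold change was 0.08. Ddit4, an inhibitor of TOR complex 1, had 2296 and 2255 normalized counts in mutant lungs, against 320 and 399 in wild-type lungs (2.67, standard error 0.16, adjusted p = 0.00439). Sesn1, a sestrin that restrains the same complex, had 3087 and 3393 against 966 and 903 (1.79, standard error 0.14), and Sesn2 had 457 and 576 against 195 and 250 (1.21, standard error 0.21, adjusted p = 0.0455). Sesn2 no longer passed without mutant replicate 1 (adjusted p = 0.0521), with equal library totals (0.056) or without the mean-variance trend (0.105). In all 3 genes the mutant lungs lay far above the wild-type lungs.

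Among 19 tested genes of other selective autophagy receptors and adaptors, 1 rose and 1 fell, with a median log2 fold change of 0.10. Of all genes tested, 1.47% were called higher and 0.917% lower. Bnip3, a receptor for mitochondria, had 2241 and 3076 normalized counts in mutant lungs, against 754 and 743 in wild-type lungs (1.81, standard error 0.18, adjusted p = 0.0143), and 47.2% of its 50-base sequences occur in other genes. Stbd1, which links glycogen to GABARAP proteins, had 1297 and 1261 against 2321 and 2333 (-0.86, standard error 0.13, adjusted p = 0.0344). The groups were wide apart in both, in opposite directions, and neither call held without the trend (0.0541 for Bnip3 and 0.0982 for Stbd1). At an unadjusted p under 0.05, 4 of the 19 were higher and 1 lower, where 10.4% and 9.64% of all genes tested were. Of 37 other autophagy genes 2 rose and none fell (6 higher and none lower at an unadjusted p under 0.05), with a median of 0.12. Trp53inp1, a p53 target whose product binds ATG8 proteins, had 9398 and 12712 against 2519 and 2757 (2.05, standard error 0.19). Dapk1, a kinase that acts on Beclin 1, had 6967 and 8023 against 3423 and 3706 (1.07, standard error 0.15). Without the trend the adjusted p was 0.0525 for Trp53inp1 and 0.0854 for Dapk1. Of 48 lysosome genes 1 rose and none fell (5 higher and 3 lower at an unadjusted p under 0.05), with a median of 0.05. These unadjusted counts are near or below the shares of all genes tested. The gene that rose was Npc1, the lysosomal cholesterol exporter, at 3754 and 3471 against 2065 and 2070 (0.80, standard error 0.13, adjusted p = 0.0452). It no longer passed with quantile normalization (0.0599), with equal library totals (0.0633) or without the trend (0.109). None of the 8 called genes in these lists passed with no filter on low values, but none of all 31939 genes tested did so either. Without the trend 72 of all genes tested were called, against 440 in the main fit. In lysosome genes both mutant lungs lay above both wild-type lungs in 15 and below in 14 of the 48. Of all genes tested 25.7% and 26.9% did so, so these counts are near the background. The counts above and below were 18 and 3 for the 37 other autophagy genes and 10 and 3 for the 19 receptors and adaptors. For the 32 genes of TOR, AMPK and their regulators they were 15 and 6. The lean upward was thus not particular to the 39 members.

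**Figure D4:**
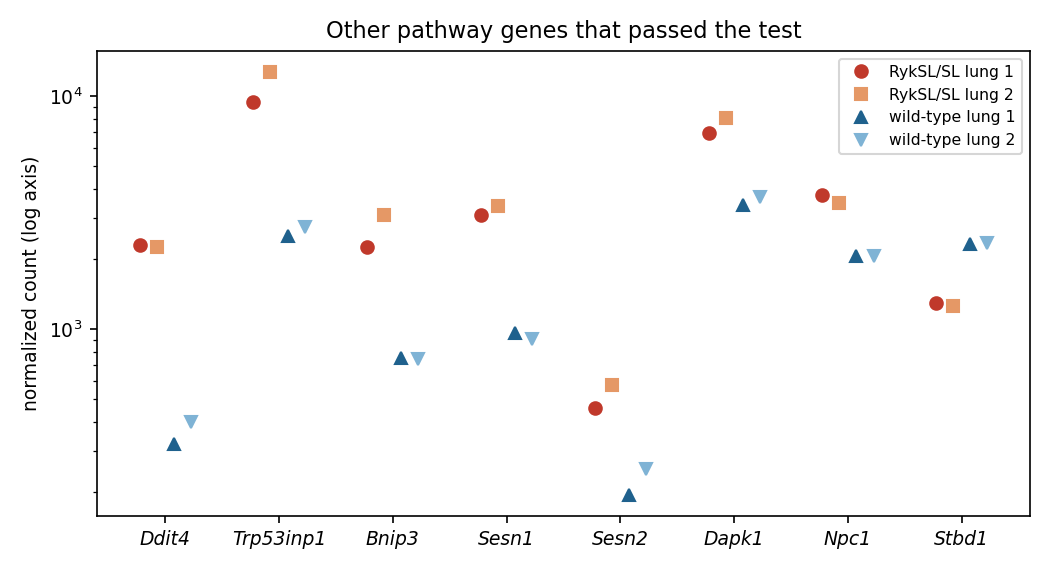
Points give the normalized count of each lung on a log axis for the 8 genes of the other pathway lists that passed the test, ordered by log2 fold change. Ddit4, Trp53inp1, Bnip3, Sesn1, Sesn2, Dapk1 and Npc1 were higher in both RykSL/SL lungs, and Stbd1 was lower.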

How the data were processed

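Libraries were made with a stranded poly(A) mRNA kit from 3 micrograms of total RNA per lung, per the labels' protocols. Per the submitters' processing notes, the tools were FastQC, STAR 2.4.0a, featureCounts 1.5.1 of Subread and DESeq2 1.14.1, with mm10 and GRCm38. The values are treated as a score: whole numbers that the authors deposited as normalized counts, with scaling, strand setting and treatment of multiply aligned reads not given in the sources used. Raw counts were not used, so no count model was run, and the depth in reads is not known. Coordinates are those of the deposited table.

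Values were tested two-sided as log2(value + 1) in limma 3.58.1 (R 4.3.3), using its mean-variance trend, over all 18436 genes whose mean reached 10, with 2 libraries per genotype in 1 fit and an adjusted p threshold of 0.05. Fold changes are mutant minus wild type and understate changes of low genes. On simulated counts for this comparison (18448 genes), 93.5% of 200 genes changed by a fold of 2 were recovered. The simulation gave every library the same spread and changed only genes with a mean of at least 50. The real mutant lungs varied more than the wild-type lungs, so this share does not give the recovery in these data. Members, role groups and the other gene lists were chosen with earlier results of these data known. All members are named, and of the other lists every gene that passed. Exon lengths, overlaps of at least 100 bases and shared 50-base sequences, on either strand, came from GENCODE M21 (GRCm38). In 9 members (Atg4a, Atg4d, Atg9a, Becn1, Gabarapl1, Gabarapl2, Sqstm1, Uvrag and Wdr45) over 10% of these sequences were shared, 2 overlapped another gene on the same strand (Atg9a and Wdr45, by genes at 0 or 1 in every library) and 9 on the opposite strand. Alternatives were other pseudocounts (0.5 and 5), filters (none and a mean of 50), scalings, no trend, a replicate block and leaving out each lung. Python 3.11.15, pandas 2.3.3, scipy 1.17.1 and matplotlib 3.10.9 were used for other steps.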

Additional observations from a re-analysis of the deposited data

How the results depend on the processing

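With 2 lungs per genotype, small differences were not separable from the spread between mice. The count of 1 autophagy machinery gene called higher held with either other pseudocount and with a mean of at least 50. It was 0 with no filter on low values, with quantile normalization, with equal library totals, without the mean-variance trend and with the replicate block (12 to 15 higher at an unadjusted p under 0.05, limma), and between 0 and 12 when a lung was left out. None was called lower under any alternative. Of all genes tested, none was called with no filter and 72 were without the trend, against 440 in the main fit. Shares of all genes at an unadjusted p under 0.05 were not computed outside the main fit. The replicate numbers do not pair the lungs (correlation of deviations -0.058); the block called 766 of all genes, and with it the adjusted p was 0.0557 for Gabarapl1 and 0.0575 for Npc1. The median log2 fold change was 0.18 with quantile normalization, 0.20 with equal library totals and 0.25 to 0.39 when a lung was left out. Of the other pathway genes, 7 were called higher and 1 lower; with no filter the counts were 0 and 0 (24 and 6 at an unadjusted p under 0.05), without the trend 2 and 0, and when a lung was left out between 0 and 19 and between 0 and 4. The cause was not tested.

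For members that did not pass, these log2 fold changes had the other sign. With equal library totals they were -0.014 for Uvrag, -0.074 for Atg4a and -0.003 for Atg4b. With quantile normalization they were -0.004 for Uvrag, -0.002 for Atg4b and -0.018 for Gabarapl2. When a lung was left out, the values ran from -0.18 to 0.366 in Pik3c3, -0.127 to 0.256 in Uvrag, -0.053 to 0.419 in Atg16l1, -0.007 to 0.726 in Atg16l2, -0.005 to 0.014 in Atg4a, -0.018 to 0.282 in Atg4d, -0.221 to 0.079 in Gabarap, -0.235 to 0.023 in Tfeb and -0.09 to 0.067 in Tfe3. Members with the mutant above and below all wild-type lungs numbered 24 and 4. With equal totals they were 21 and 7 (20.8% and 34.6% of all genes tested), without mutant replicate 1 they were 30 and 7 (42.0% and 44.8%), and without mutant replicate 2 they were 26 and 8 (40.9% and 42.1%), so the shares over all genes moved too.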
